A study of Mus musculus with 16 samples.

Results

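The genes described here are 10 genes of mesenchymal cell state and adhesion, read in cells of the mouse coronal suture. They are the transcription factors Snai1, Snai2, Zeb1 and Zeb2, the cadherins Cdh2 (N-cadherin) and Cdh11 (OB-cadherin), the immunoglobulin-type adhesion molecules Ncam1 and Vcam1, and the platelet-derived growth factor receptors Pdgfra and Pdgfrb. Each gene was taken by name from a table of log2 expression values, as its brightest probe set that the platform annotation gives to that gene alone. This gave values for 9 of the 10 genes, out of 22180 genes in all. The probe sets of Zeb2 also carry the symbol of a neighbouring gene, Zeb2os or Mir5129, and Zeb2 is not analysed here. All 9 measured genes had a mean above 3.905, the 40th percentile of the named probe sets, and were among the 13453 genes tested.

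The coronal suture is a seam of connective tissue where the frontal bones of the skull meet the parietal bones. The 16 Affymetrix arrays read cells of C57BL6 mice that were wild type or Twist1+/-, kept in control medium (DMEM with 10% fetal bovine serum) or in the same medium with added thyroxine (-6 as log10 of mol per liter), for 3 or 7 days. The 8 groups of genotype, medium and day held 2 arrays each, 1 of female and 1 of male cells. There was thus 1 culture for each genotype and sex, 4 in all, from 2 litters, and no p-value below measures the spread between animals. Unknown from the labels are the age of the mice, the part of Twist1 altered in the heterozygous allele, and whether an array pooled the 3 wells of its condition.

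In an epithelial-mesenchymal transition, cells lose the junctions of an epithelium and take on the loose, mobile form of mesenchyme. Snail (Snai1), Slug (Snai2) and the Zeb proteins bind E-box sequences in DNA and repress epithelial genes such as Cdh1 (E-cadherin), and Twist1 acts with them. Suture cells are mesenchymal from the start, and in the skull vault Twist1 helps to keep the cells of the suture unossified and the boundary between the bones sharp. N-cadherin and OB-cadherin join mesenchymal cells and osteoblast precursors to each other, Ncam1 binds Ncam1 on the neighbouring cell, and Vcam1 binds integrins on white blood cells. The PDGF receptors are tyrosine kinases that drive the growth and movement of mesenchymal cells.

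The microRNAs of the miR-200 family repress Zeb1 and Zeb2, which in turn repress the microRNA genes. Their mature 3p strands are shown because the seed that pairs with a target sorts the family into 2 sets. The sequences are those of RefSeq with the assembly GRCm38.p6, written 5′ to 3′ with the seed, bases 2 to 8, in capitals.
mmu-miR-200a-3p: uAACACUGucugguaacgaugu
mmu-miR-141-3p: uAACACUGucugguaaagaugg
mmu-miR-200b-3p: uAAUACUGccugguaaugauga
mmu-miR-200c-3p: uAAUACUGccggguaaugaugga
mmu-miR-429-3p: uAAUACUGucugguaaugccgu
The first 2 share 1 seed and the other 3 share a second. Probe sets that carry the symbol of a hairpin alone were found for 4 of the 5 hairpins. Their means over the 16 arrays, 1.94 for Mir141, 2.57 for Mir200b, 2.63 for Mir200c and 3.86 for Mir200a, all lay below the 3.905 used as the floor. Such probe sets read precursor RNA, and the level of the mature strands was not measured.

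E-boxes, the sites bound by the Snail, Zeb and Twist families, have the letters CANNTG, which read the same on both strands, and the Snail and Zeb proteins bind best to the form CAGGTG. Promoter windows were matched by symbol for 3 of the 10 genes, Snai1, Pdgfra and Zeb2. Those of Snai1 and Pdgfra are shown as the 250 bases before the RefSeq start of the gene (GRCm38.p6), since these are the 2 genes with a window whose values are followed across medium and genotype below. Letters of an E-box are in capitals.
Snai1, chr2:167537945-167538194, plus strand: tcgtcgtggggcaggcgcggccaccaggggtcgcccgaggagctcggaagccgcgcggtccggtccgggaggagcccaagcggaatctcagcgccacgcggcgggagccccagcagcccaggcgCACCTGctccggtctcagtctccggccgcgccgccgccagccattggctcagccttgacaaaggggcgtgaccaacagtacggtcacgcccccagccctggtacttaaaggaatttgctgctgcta
Pdgfra, chr5:75152001-75152250, plus strand: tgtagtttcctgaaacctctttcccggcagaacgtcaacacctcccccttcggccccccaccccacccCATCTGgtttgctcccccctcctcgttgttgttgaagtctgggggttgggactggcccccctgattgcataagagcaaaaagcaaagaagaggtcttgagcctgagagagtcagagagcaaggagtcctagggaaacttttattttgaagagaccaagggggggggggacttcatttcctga
The Snai1 window held 1 E-box, which is a CAGGTG read on the opposite strand, with its first base at -126 from the start of the gene. The Pdgfra window held 1 E-box and no CAGGTG, with its first base at -182. Of 32851 promoter windows of this length in the table, 66.2% held a CANNTG and 17.2% a CAGGTG on either strand. A match describes the letters only.

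Values below are log2 expression values after RMA, a method that sets all arrays to the same distribution, so a shift of all genes at once could not be seen. Differences were tested with limma over all 13453 genes, with Benjamini-Hochberg adjustment and a threshold of 0.05. 2 sets of arrays stood apart and are followed through the results. All 4 wild-type male arrays differed from the other 12 in many genes, and 5.29% of genes tested read lower on each of them than on any other array. Both Twist1+/- arrays in control medium at 7 days lay together above or below the other 14 arrays in 5.51% of genes tested, against 0.639% to 2.42% for the pairs of arrays of the other 7 groups, and Snai1 was the only one of the 9 genes among them. Twist1 itself averaged 6.45 at 3 days and 6.11 at 7 days in the wild-type male culture, 7.58 and 7.17 in the wild-type female culture, and 6.80 to 7.39 in the Twist1+/- cultures. It was 0.32 ± 0.27 (SE) higher in Twist1+/- cells with an adjusted p of 0.937 by limma, so the array did not separate the genotypes by this gene, and the labels do not say whether its probes lie in the altered part.

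Markers of the tissue were in place for mesenchyme and low for epithelium. All 14 genes of a mesenchymal list passed the floor, with Vim (vimentin, an intermediate filament) at a mean of 12.8. Of 15 epithelial genes, 14 had a probe set that carries their symbol alone and 5 passed the floor. Those 5 averaged from 4.59 for Esrp2 to 5.45 for Cdh1, and Epcam, the surface marker of epithelia, averaged 3.56. Of 7 osteoblast markers, 5 had such a probe set and were read. Of these only Alpl (alkaline phosphatase) passed the floor, while Ibsp, Bglap, Sp7 and Dmp1 lay below it. Macrophage genes were well above the floor, and Csf1r, the receptor for the macrophage growth factor, averaged 9.72.

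**Figure D1:**
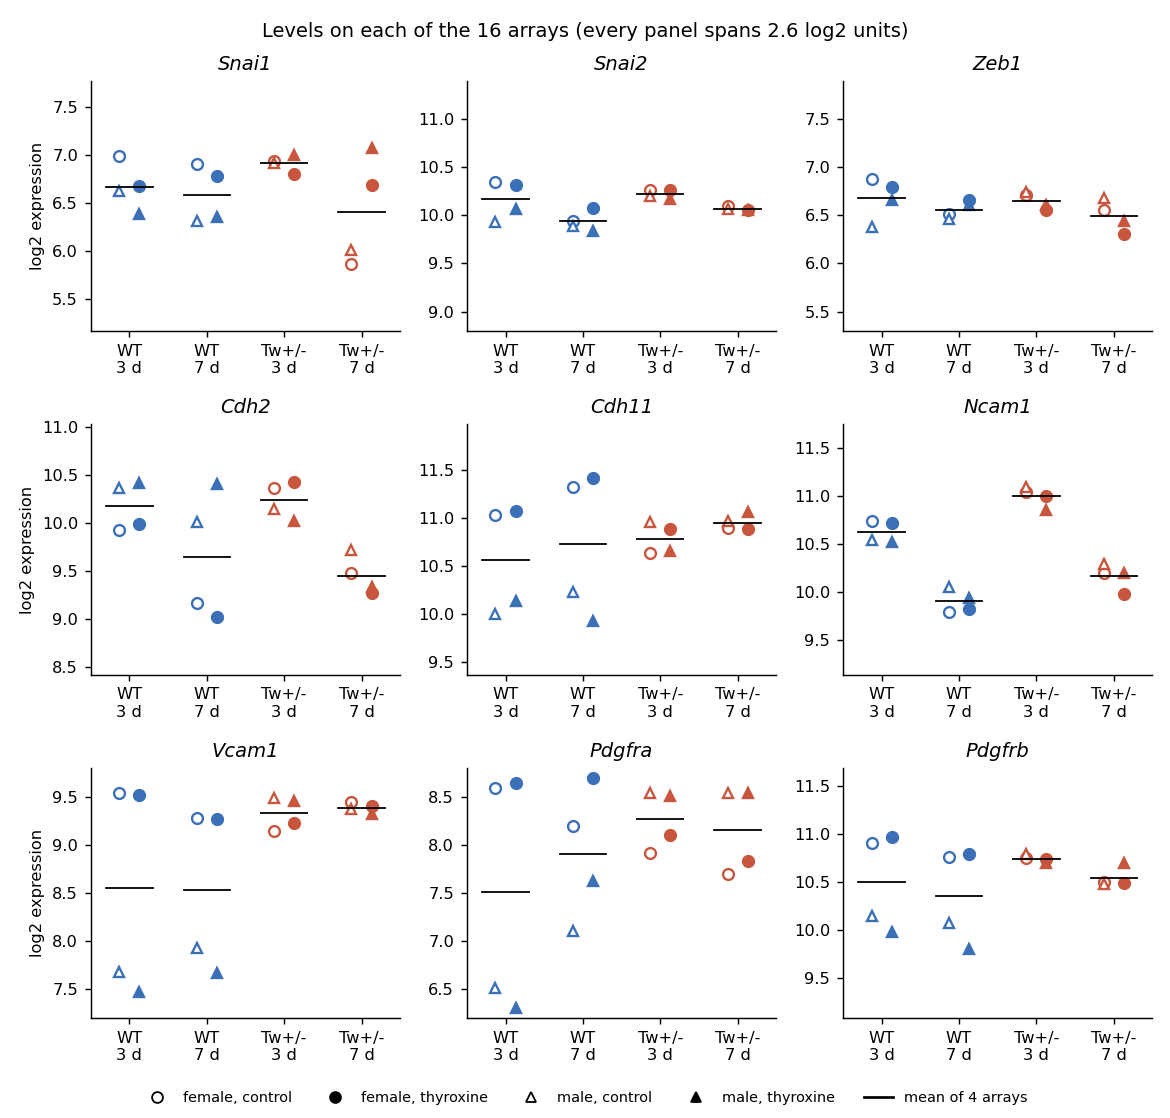
log2 expression of the 9 measured genes on each of the 16 arrays, by genotype and day (blue, wild type, WT; red, Twist1+/-, Tw+/-); circles are female and triangles male cells, open symbols control medium and filled symbols thyroxine, and lines are means of 4 arrays. Ncam1 at 7 days lies below every 3-day array, the wild-type male triangles lie apart for Cdh11, Vcam1, Pdgfra and Pdgfrb, and the 2 open red symbols of Snai1 at 7 days, 5.86 and 6.01, are its lowest values.

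The clearest change in these genes came with time in culture. Between 3 and 7 days Ncam1 and Cdh2 fell, by 0.78 and 0.66 on the log2 scale, which is 1.71-fold and 1.58-fold, and Snai1 and Snai2 fell by 0.29 and 0.19. The other 5 genes did not pass the test. The 4 calls compare with 8.69% of all genes tested called lower and 9.84% called higher at 7 days, and the median difference was -0.17 over the 9 genes and -0.02 over all genes. The comparison takes both genotypes and media together, with the culture as a random block.

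Ncam1, the neural cell adhesion molecule, is also made by mesenchymal and early bone-forming cells. In wild-type female cells it read 10.74 in control medium and 10.72 with thyroxine at 3 days, and 9.80 and 9.83 at 7 days. In wild-type male cells it read 10.54 and 10.52 at 3 days and 10.05 and 9.94 at 7 days. In both cultures each 7-day value lay below both 3-day values. In Twist1+/- female cells it read 11.04 in control medium and 11.00 with thyroxine at 3 days, and 10.20 and 9.98 at 7 days. In Twist1+/- male cells it read 11.09 and 10.86 at 3 days and 10.29 and 10.20 at 7 days. The 8 values at 7 days, 9.80 to 10.29, did not overlap the 8 at 3 days, 10.52 to 11.09, a separation in this direction seen in 0.505% of genes tested. The fitted difference was -0.78 ± 0.07 (SE, 8 arrays a day; limma, adjusted p = 0.000153), the 4th smallest p of the 13453 genes, and the sign was the same in 8 of 8 comparisons within a culture and medium. Here and for the genes below, these 8 comparisons come from 4 cultures and are not 8 replicates of day. The share of all genes with the same sign in all 8 was not counted.

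Within each genotype Ncam1 changed in the same direction. In wild-type cells the difference was -0.72 ± 0.09 (SE, 4 arrays a day; limma, adjusted p = 0.0107), and Ncam1 was 1 of only 8 genes called lower there, 0.0595% of those tested. That call was kept in 12 of 16 fits with 1 array left out; it was lost without any 1 of the 4 wild-type female arrays, with the adjusted p reaching 0.0987. In Twist1+/- cells the difference was -0.83 ± 0.09 (limma, adjusted p = 0.000878), against 5.4% of genes called lower. The change did not differ measurably between genotypes, with a difference of -0.10 ± 0.13 (limma, adjusted p = 0.833).

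Cdh2, N-cadherin, which links mesenchymal cells through calcium-dependent junctions, showed a larger difference in 3 of the 4 cultures than in the remaining one. At 3 days it read 9.93 in control medium and 9.99 with thyroxine in wild-type female cells, and 9.17 and 9.02 at 7 days. In Twist1+/- female cells the values were 10.36 and 10.43 at 3 days and 9.48 and 9.27 at 7 days. In Twist1+/- male cells they were 10.15 and 10.02 at 3 days and 9.72 and 9.33 at 7 days. In these 3 cultures all 7-day values lay below the 3-day values of the same culture. In wild-type male cells Cdh2 read 10.36 and 10.42 at 3 days and 10.01 and 10.40 at 7 days, so the thyroxine arrays of the 2 days differed by 0.02. Over all arrays the difference was -0.66 ± 0.14 (SE, 8 arrays a day; limma, adjusted p = 0.00535), with the lower value at 7 days in 8 of 8 comparisons.

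By genotype, Cdh2 passed the test in Twist1+/- cells, at -0.79 ± 0.19 (limma, adjusted p = 0.0165), and not in wild-type cells, at -0.53 ± 0.19 (limma, adjusted p = 0.198). The call in Twist1+/- cells was kept in 10 of 16 fits with 1 array left out. It was lost without either Twist1+/- female array at 3 days or any 1 of the 4 Twist1+/- arrays at 7 days, with the adjusted p reaching 0.103, and without both control arrays at 7 days (limma, adjusted p = 0.121). The difference between the genotypes was -0.27 ± 0.27 (limma, adjusted p = 0.790) and did not pass the test. Without the wild-type male culture the wild-type difference, then of 1 culture, was -0.86 ± 0.14, a value that rests on arrays of the same cells. The gene had 2 probe sets of its own, with means of 9.88 and 7.56, and the second read -0.50 between the days where the first read -0.66, with the same sign in all 4 cultures.

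Of the repressors, Snai2 showed a small drop and Zeb1 none that passed the test. Snai2, the Snail-family member of neural crest and connective tissue, read 9.93, 10.23 and 10.35 at 3 days (lowest, median and highest of 8 arrays) and 9.84, 10.06 and 10.10 at 7 days. The ranges overlapped, and the 7-day value was lower in 8 of 8 comparisons within a culture and medium, a count with the limits given for Ncam1. The difference was -0.19 ± 0.06 (SE; limma, adjusted p = 0.0334), and the call was kept in 2 of 16 fits with 1 array left out. Zeb1, a zinc-finger repressor of epithelial genes, read 6.38, 6.69 and 6.88 at 3 days and 6.31, 6.54 and 6.68 at 7 days. It was lower at 7 days in 7 of 8 comparisons, and its difference of -0.14 ± 0.07 did not pass the test (limma, adjusted p = 0.214).

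Snai1, the Snail repressor that is itself quickly induced and degraded in cells, stood lower at 7 days mainly on 2 arrays. At 3 days the 8 arrays read 6.38, 6.86 and 7.00 (lowest, median and highest). At 7 days the 2 Twist1+/- control arrays read 5.86 in female and 6.01 in male cells, and the other 6 lay between 6.31 and 7.07. Over all arrays the difference was -0.29 ± 0.09 (SE; limma, adjusted p = 0.0371), and in Twist1+/- cells -0.51 ± 0.12 (limma, adjusted p = 0.0182). Without those 2 arrays, which leaves the thyroxine arrays alone for Twist1+/- cells at 7 days, the differences were -0.06 (adjusted p = 0.784) and -0.03 (adjusted p = 0.960) by limma. The sign was negative in 6 of 8 comparisons, and the call over all arrays was kept in 3 of 16 fits with 1 array left out. The difference between genotypes in the day change was -0.42 ± 0.18 for Snai1 (limma, adjusted p = 0.562), with 0% of genes called in that comparison, 1 of the 9 genes under an unadjusted p of 0.05 and 1174 genes so over all tested.

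Cdh11, OB-cadherin of osteoblasts and mesenchyme, did not pass the test by day. It read 10.00, 10.77 and 11.07 at 3 days (lowest, median and highest of 8 arrays) and 9.93, 10.93 and 11.41 at 7 days, with a difference of 0.17 ± 0.14 (limma, adjusted p = 0.481). Without the wild-type male culture, left out because it stood apart in these data, its difference was 0.24. That fit leaves 1 wild-type culture and sets the within-culture correlation to 0, so only the size is given. The 0.24 was opposite in sign to the difference of Cdh2 over the same arrays. Across the 16 arrays the log2 values of Cdh11 and Cdh2 correlated at -0.72, and at -0.68 over the 12 arrays without that culture, where arrays share cultures and days.

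Vcam1, Pdgfra and Pdgfrb gave day differences of 0.02 ± 0.20, 0.14 ± 0.27 and -0.17 ± 0.11 (SE; limma, adjusted p = 0.960, 0.773 and 0.308). Vcam1 was higher at 7 days in 4 of 8 comparisons and lower in the other 4. Pdgfra read 6.52 and then 7.11 in control medium and 6.31 and then 7.63 with thyroxine in wild-type male cells, and its other 6 comparisons lay between -0.39 and 0.05. Pdgfrb was lower at 7 days in 7 of 8 comparisons and equal in 1. Its adjusted p was 0.0382 in a limma fit with the culture as a fixed replicate block, which takes out the level of each culture. In that fit 3171 of 13453 genes were called by day, against 2493 in the main fit.

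**Figure D2:**
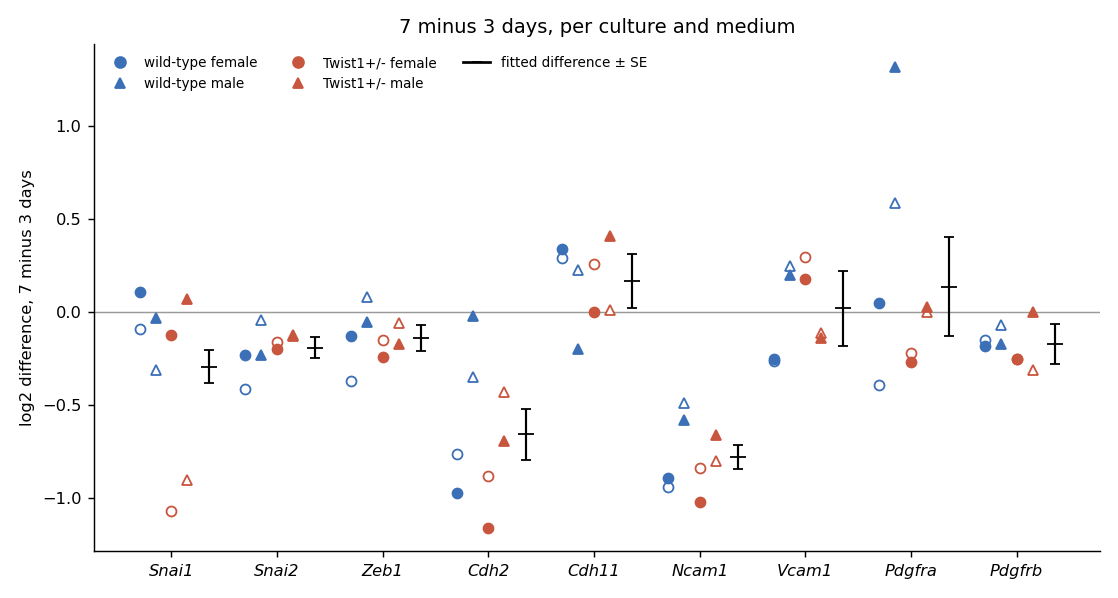
log2 difference between 7 and 3 days for each gene in each culture (blue, wild type; red, Twist1+/-; circles, female; triangles, male; open, control medium; filled, thyroxine), with the fitted difference and its standard error in black. All 8 points of Ncam1, Cdh2 and Snai2 lie below 0, and the 2 low points of Snai1, -1.07 and -0.90, are the Twist1+/- cultures in control medium.

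The mixture of cells moved with day as well. Of 15 macrophage and osteoclast markers, 12 rose between the days, beside 9.84% of all genes. Among the 12, Cd68 rose by 1.54, Adgre1 (a surface receptor of macrophages) by 1.39, Ptprc (CD45, the common marker of white blood cells) by 1.13 and Csf1r by 1.07 on the log2 scale. None fell by the test, and Mmp9, Ctsk and Acp5 of osteoclasts read -0.39, -0.19 and -0.12. The mean of the list ran from 7.42 to 8.21 at 3 days and, at the later time, from 8.83 to 9.12 in the wild-type female and both Twist1+/- cultures. In the wild-type male culture it was 8.88 to 8.94 at 3 days and 8.86 to 9.09 at 7 days. In that culture, where the list moved little, Ncam1 read -0.49 and -0.58 between the days in control medium and with thyroxine, and Cdh2 -0.35 and -0.02. In bulk cultures fewer cells of a type and less RNA per cell cannot be told apart, and the part of the cell mixture in the falls of Ncam1, Cdh2, Snai1 and Snai2 was not tested.

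Lists of markers of other cell types were also read by day. Of 7 pericyte and smooth muscle markers, 5 fell, beside 8.69% of all genes. Cnn1 (calponin) read -1.12, Tagln -0.73 and Acta2 (smooth muscle actin) -0.41. The mean of that list ran from 7.56 to 7.98 on the 3-day arrays and from 7.01 to 7.58 on the 7-day arrays, so it was lower where Ncam1 and Cdh2 were lower, and its part was not tested. Of 6 endothelial markers 3 passed the floor and 0 were called (limma, smallest adjusted p = 0.263). Those 3, Kdr, Cdh5 and Pecam1, averaged 4.92, 4.89 and 4.19, and the lowest of the list, Emcn, averaged 2.37. Of 9 nerve, glia and skeletal muscle markers 6 passed the floor and 0 were called by day (limma, smallest adjusted p = 0.184). Alpl, the only osteoblast marker read that passed the floor, fell with Ncam1 and Cdh2, at -0.40 ± 0.13 (limma, adjusted p = 0.0436). It read -0.51 and -0.12 in wild-type female and male cells and -0.36 and -0.61 in Twist1+/- female and male cells. Its part was not tested either.

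Genes with related roles in adhesion were followed by day. Of 13 other cadherins and catenins, 11 passed the floor, 3 fell and 1 rose, beside 8.69% of all genes that fell and 9.84% that rose, with a list median of -0.18 against -0.02 over all genes. Cdh6 and Cdh10, classical cadherins like Cdh2, read -0.76 ± 0.14 and -0.73 ± 0.17, and Ctnna1 (α-catenin, which ties cadherins to actin) -0.39 ± 0.08 (limma, adjusted p = 0.00310, 0.0111 and 0.00590). Cdh1, the epithelial cadherin and the classical target of the repressors above, rose by 0.37 ± 0.09 (limma, adjusted p = 0.0110). Its difference was 0.74 and 0.68 in Twist1+/- female and male cells, 0.23 in wild-type female cells and -0.18 in wild-type male cells. Its mean level was low, at 5.45. The part of the repressors and of the cell mixture in this rise was not tested. The other 4 epithelial genes above the floor were not called by day, and the median over the 5 was -0.11.

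Among immunoglobulin adhesion molecules, their integrins and the enzymes of polysialic acid, 11 of 14 passed the floor, 3 rose and 2 fell (9.84% and 8.69% of all genes), with a list median of 0.02. St8sia4, an enzyme that adds polysialic acid to Ncam1, rose by 1.04 ± 0.14 while Ncam1 fell, and Itga4, the integrin chain that binds Vcam1, rose by 0.69 ± 0.09 while Vcam1 did not pass the test (limma, adjusted p = 0.000498 and 0.000463 for the 2 rises). In the wild-type male culture these 2 differences were 0.20 and 0.37, against 1.26 to 1.40 and 0.64 to 0.95 in the other 3 cultures. The macrophage list also moved little in that culture, as did genes such as Nrcam (0.09), Ctnna1 (0.04) and Hmga2 (-0.19). Other genes called by day moved further there, such as Cnn1 (-0.755), Cdh10 (-0.545) and Cdh6 (-0.43). The part of the cell mixture in the changes of St8sia4 and Itga4 was not tested. Icam1, which binds other integrins of white blood cells, rose by 0.35 ± 0.10, and Nrcam and Itgb1 (the β1 integrin chain) read -0.56 ± 0.14 and -0.51 ± 0.09 (limma, adjusted p = 0.0252, 0.0187 and 0.00238).

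**Figure D3:**
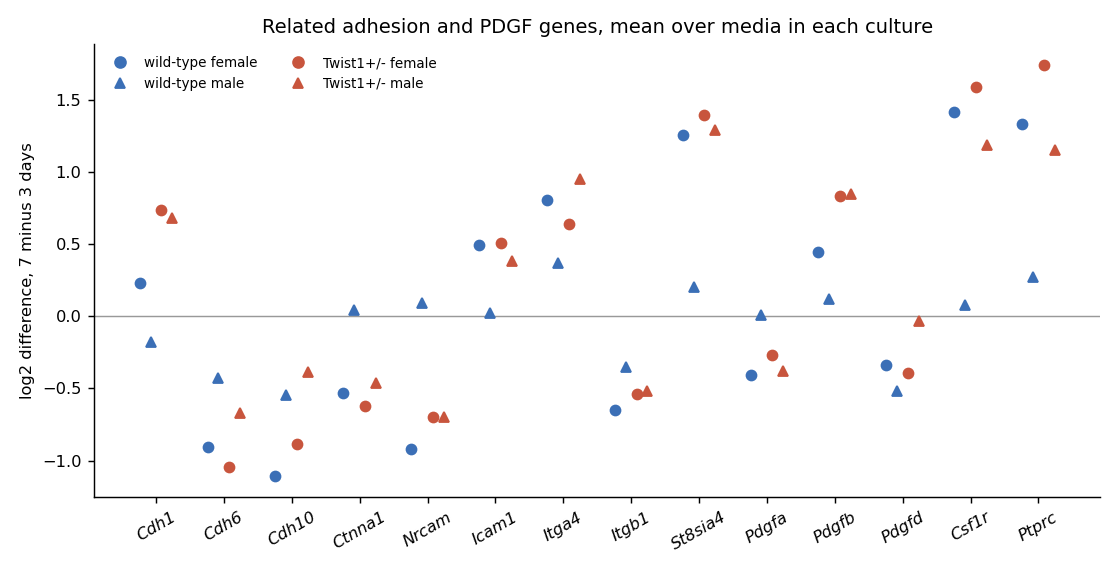
log2 difference between 7 and 3 days of 14 related genes, as the mean over both media in each culture (blue, wild type; red, Twist1+/-; circles, female; triangles, male). Csf1r and Ptprc, markers of macrophages and white blood cells, read above 1 in 3 cultures and 0.08 and 0.28 in the wild-type male culture, and St8sia4 read 1.26 to 1.40 in those 3 and 0.20 in that culture.

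Of 7 PDGF ligands and genes related to the receptors, 6 passed the floor, and 2 rose and 2 fell by day, beside 9.84% and 8.69% of all genes. The ligand Pdgfb, which binds both receptors, rose by 0.56 ± 0.09 (limma, adjusted p = 0.00159) and Csf1r, a kinase of the same family, by 1.07 ± 0.16 (adjusted p = 0.000949). The ligands Pdgfa, which binds Pdgfra, and Pdgfd, which binds Pdgfrb, read -0.26 ± 0.08 and -0.32 ± 0.08 (limma, adjusted p = 0.0425 and 0.0128). Pdgfb differed by 0.12 in the wild-type male culture and by 0.45 to 0.85 in the other 3. The receptors themselves were not called.

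Of 20 other regulators of the transition and E-box factors, all passed the floor, 2 rose and 2 fell by day (9.84% and 8.69% of all genes), with a list median of -0.07. Tgfbr1 (a receptor of transforming growth factor β) rose by 0.83 ± 0.11 and Id2 (an inhibitor of helix-loop-helix factors) by 0.51 ± 0.10 (limma, adjusted p = 0.000537 and 0.00350). Hmga2, a chromatin protein that induces Snail in other cells, read -0.83 ± 0.19 and Prrx2, a homeobox factor of mesenchyme, -0.26 ± 0.07 (limma, adjusted p = 0.0107 and 0.0222). Of the 14 mesenchymal genes, Tnc (tenascin C), S100a4 and Vim fell, by 0.77, 0.59 and 0.23 on the log2 scale, and Nt5e (CD73) rose by 0.37, while the other 10, among them Col1a1 and Fn1, were not called. The genes that fell were 3 of 14 in the mesenchymal list and 2 of 20 among the regulators, to be read beside the 8.69% of all genes.

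Between the genotypes 0 of the 9 genes passed the test, as did 0% of all genes over both days and media, in control medium alone, at 3 days alone and at 7 days alone. By limma 2 of the 9 genes, Ncam1 and Vcam1, and 619 of all genes had an unadjusted p under 0.05 over both days and media. The comparison sets 2 cultures against 2, with a female and a male culture on each side.

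Set against wild-type cells of the same sex, day and medium, Ncam1 read higher in Twist1+/- cells 8 of 8 times. These 8 comparisons come from 1 female and 1 male pair of cultures and are not 8 replicates of genotype. The differences were 0.30, 0.28, 0.40 and 0.15 in female cells and 0.55, 0.34, 0.24 and 0.26 in male cells (control and thyroxine at 3 days, then at 7 days). The fitted difference was 0.32 ± 0.09 (SE, 8 arrays a genotype; limma, adjusted p = 0.937), or 1.24-fold. Of the 9 genes, Ncam1 was the only one with the same sign in all 8, and the share of all genes that did so was not counted.

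Vcam1, Pdgfra, Cdh11 and Pdgfrb turned on 1 culture. In wild-type male cells Vcam1 read 7.68 in control medium and 7.47 with thyroxine at 3 days and 7.93 and 7.67 at 7 days. On the other 12 arrays it lay between 9.15 and 9.54, so the groups were more than a log2 unit apart. Pdgfra read 6.52 and 6.31 at 3 days and 7.11 and 7.63 at 7 days in wild-type male cells, and 7.70 to 8.70 elsewhere. Cdh11 read 9.93 to 10.23 in wild-type male cells and 10.63 to 11.41 elsewhere. Pdgfrb read 9.81 to 10.15 there and 10.48 to 10.97 elsewhere. All 4 genes thus had every wild-type male array below the other 12, against 5.29% of all genes tested, and these 4 were picked out for that after their values were seen. The mean of the mesenchymal list was lower there too, at 9.28 to 9.56 against 9.88 to 10.16 on the other 12 arrays. Its part in the low values of these genes was not tested.

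The genotype difference of Vcam1 was 0.82 ± 0.28 over all arrays (SE; limma, adjusted p = 0.937). It was 1.45 to 1.99 in male cells and -0.39 to 0.17 in female cells, and without the wild-type male culture, which leaves Twist1+/- female against wild-type female cells, the mean was -0.09 ± 0.29 (SD, n = 4 comparisons). Pdgfra differed by 0.50 ± 0.38 over all arrays (limma, adjusted p = 0.937), by 0.91 to 2.20 in male cells and by -0.87 to -0.50 in female cells. The mean in female cells was -0.65 ± 0.16 (SD, n = 4 comparisons), a value that sets 1 culture against 1 and so gives no test of genotype. Cdh11 and Pdgfrb had the same change of sign, with 0.84 ± 0.27 and 0.66 ± 0.20 in male cells and -0.39 ± 0.14 and -0.24 ± 0.06 in female cells (mean ± SD, n = 4 comparisons). In the male comparison genotype cannot be told apart from whatever set the wild-type male culture apart.

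The fitted genotype differences of Snai1, Snai2, Zeb1 and Cdh2 did not pass the test, and single comparisons went both ways for each of them. They were 0.03 ± 0.13, 0.10 ± 0.08, -0.04 ± 0.10 and -0.07 ± 0.19 (SE; limma, adjusted p = 0.988, 0.937, 0.967 and 0.977). Snai1 ran from -1.04 in female cells in control medium at 7 days to 0.72 in male cells with thyroxine at 7 days, Snai2 from -0.09 to 0.27 and Zeb1 from -0.35 to 0.36. Cdh2 was higher in Twist1+/- female than in wild-type female cells by 0.36 ± 0.09 and lower in Twist1+/- male than in wild-type male cells, at -0.49 ± 0.39 (mean ± SD, n = 4 comparisons). The wild-type male culture had the highest mean of Cdh2, 10.3, and the lowest of Vcam1, 7.69.

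**Figure D4:**
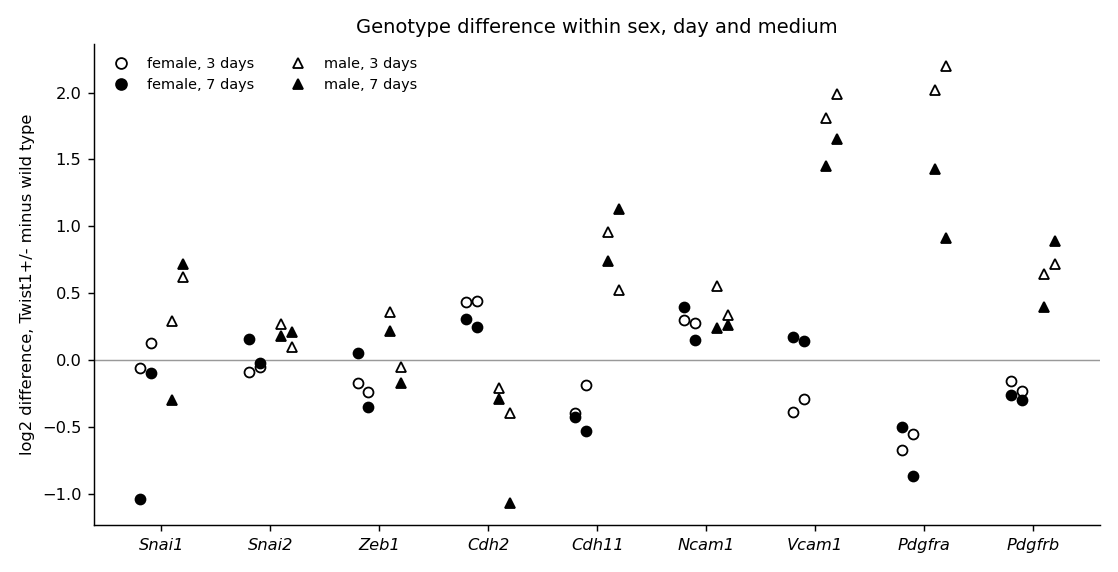
log2 difference between Twist1+/- and wild-type cells of the same sex, day and medium (circles, female; triangles, male; open, 3 days; filled, 7 days; in each pair of symbols control is left and thyroxine right). Every point of Ncam1 lies above 0, and for Cdh11, Pdgfra and Pdgfrb all male points lie above and all female points below 0, with the 2.20 of Pdgfra as the largest.

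Thyroxine, the main hormone of the thyroid gland, changed 0 of the 9 genes by the test. Over all 8 pairs of a thyroxine and a control array of the same culture and day, 0.0966% of all genes were called, and 2 of the 9 genes, Snai1 and Pdgfra, had an unadjusted p under 0.05, as did 825 of all genes. Called genes made up 0.0149% for wild-type cells alone, 0.201% for Twist1+/- cells alone, 0.0595% for the difference between the genotypes and 0.00743% for the difference between the days. At 3 days alone 0% of genes were called (410 with an unadjusted p under 0.05, and 0 of the 9 genes) and at 7 days alone 0.156%, in fits added after the data were seen. Of the 9 genes, 0 were called in each of these fits.

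Snai1 showed the largest response of the 9 genes, in 1 genotype at 1 time. In Twist1+/- cells at 7 days it read 5.86 in control medium and 6.68 with thyroxine in female cells, and 6.01 and 7.07 in male cells. The remaining 6 pairs differed by -0.32 to 0.09. The fitted response in Twist1+/- cells was 0.46 ± 0.09 (SE, 4 pairs; limma, adjusted p = 0.0617), against -0.16 ± 0.09 in wild-type cells (limma, adjusted p = 0.908). The difference between genotypes, 0.62 ± 0.13, did not pass the test (limma, adjusted p = 0.142). At 7 days over both genotypes the response was 0.45 ± 0.09 (limma, adjusted p = 0.0930).

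The 3-day arrays and the wild-type arrays at 7 days ran from 6.31 to 7.00, and of the 2 thyroxine values 6.68 lay within that range and 7.07, the highest Snai1 value of all 16 arrays, above it, while both controls lay below it. Without the 2 pairs that hold those controls, the response in Twist1+/- cells was -0.02 ± 0.13 and that at 7 days -0.04 ± 0.13 (limma, adjusted p = 0.998 for each). These values carry no evidence on the later Twist1+/- response, since they rest on the 3-day pairs alone for Twist1+/- cells and on the wild-type pairs alone for 7 days, and the pairs left out were noticed for their Snai1 values. Since both control arrays also stood apart for other genes, whether the hormone or another property of these arrays set the difference cannot be told apart.

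Pdgfra, the receptor of early mesenchymal and osteoblast-lineage cells, gave 0.14 ± 0.05 over all pairs and 0.29 ± 0.08 at 7 days (SE; limma, adjusted p = 0.764 and 0.238). The pairs at 7 days differed by 0.50 and 0.52 in wild-type female and male cells and by 0.13 and 0.00 in Twist1+/- female and male cells. At 3 days they differed by 0.06, -0.21, 0.18 and -0.03 in the same order, so both wild-type pairs were higher with thyroxine at the later time. Zeb1 was lower with thyroxine in 4 of 4 Twist1+/- pairs, by 0.13 to 0.25, and higher in 3 of 4 wild-type pairs, with fitted responses of -0.19 ± 0.09 and 0.12 ± 0.09 (limma, adjusted p = 0.478 and 0.932) and a difference of -0.32 ± 0.13 (adjusted p = 0.477).

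The remaining genes moved by 0.09 or less over the 8 pairs. Ncam1 and Vcam1 were each lower with thyroxine in 7 of 8 pairs, at -0.09 ± 0.05 and -0.07 ± 0.05 (SE; limma, adjusted p = 0.829 and 0.878). Snai2, Cdh2, Cdh11 and Pdgfrb gave 0.01 ± 0.05, -0.04 ± 0.06, -0.0025 ± 0.07 and -0.03 ± 0.05 (limma, adjusted p = 0.984, 0.943, 0.997 and 0.950). None of the related lists had a gene called for thyroxine over all pairs.

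**Figure D5:**
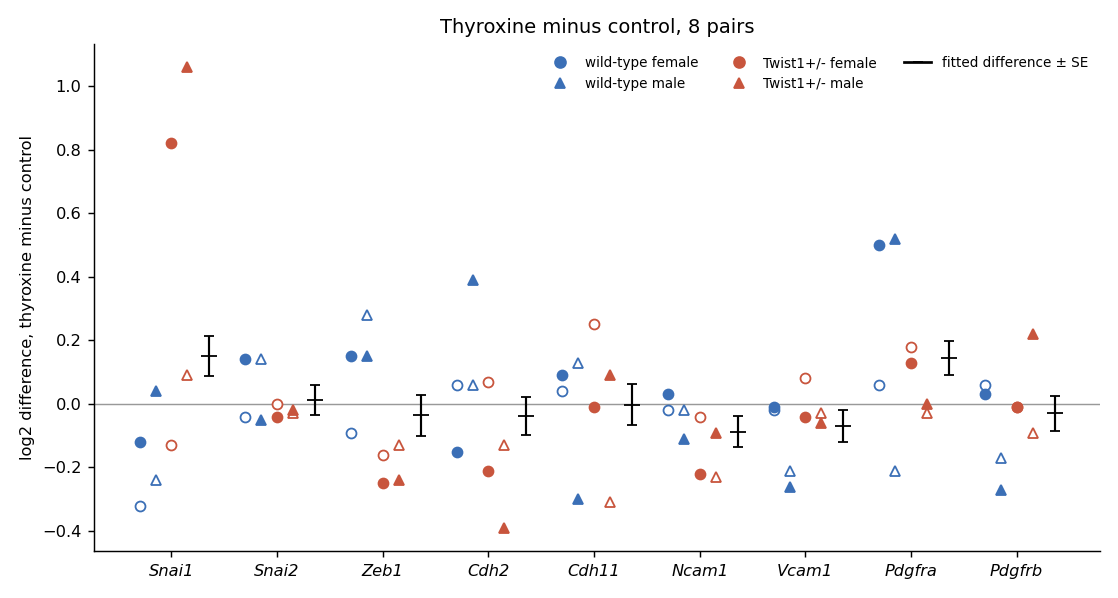
log2 difference between the thyroxine and the control array of each of the 8 pairs (blue, wild type; red, Twist1+/-; circles, female; triangles, male; open, 3 days; filled, 7 days), with the fitted difference and its standard error in black. The 2 Twist1+/- pairs at 7 days, 0.82 and 1.06, are the only Snai1 points above 0.1, and both wild-type pairs of Pdgfra at 7 days lie at about 0.5.

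Correlations describe how the genes varied together over arrays that share cultures, days and scaling. Ncam1 and Cdh2 correlated at 0.67 over 16 arrays and at 0.97 over the 12 arrays without the wild-type male culture. Cdh11, Vcam1, Pdgfra and Pdgfrb correlated with each other at 0.81 to 0.90 over 16 arrays, and at -0.03 to 0.57 over those 12. The mean of the macrophage and osteoclast list correlated at -0.90 with Ncam1, -0.91 with Cdh2 and -0.89 with Snai2 over those 12 arrays, and at -0.86, -0.51 and -0.83 over all 16. Day, the macrophage list and these genes thus varied together, and their parts were not tested.

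By Pearson correlation over the 16 arrays, the 3 genes most like each of the 9 were also listed. For Cdh2 they were Ptprk (a receptor phosphatase), Tpm2 (tropomyosin) and Dock5, at 0.97 each, and for Ncam1 Ppfibp1, Lsg1 and Fbxo32, at 0.95 to 0.96. For Cdh11 they were Col6a2 (a chain of collagen VI), Adgrl2 and Bicc1 at 0.97, for Vcam1 Slc1a4, Il13ra1 and Ifit1 at 0.98, for Pdgfra Sh3d19, Mmp11 and Matn2 at 0.95 to 0.98, and for Pdgfrb Fstl1, Aldh18a1 and Rcn3 at 0.95 to 0.97. Without the wild-type male culture the values for Vcam1 lay between 0.58 and 0.71, while those for Ncam1 and Cdh2 stayed at 0.96 to 0.98. The transcription factors had looser neighbours, with Pja1, Colgalt1 and Crcp for Snai1 at 0.84 to 0.86, Spen, Akap9 and Zfp827 for Zeb1 at 0.86 to 0.88, and Rcn1, Adam12 and Kdm3a for Snai2 at 0.90 to 0.92.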

How the data were processed

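RNA of mouse coronal suture cells was read on 16 Affymetrix arrays, from 100 ng of total RNA each. The authors deposited log2 expression values, 1 per probe set and array. The submitters' processing notes name RMA and Affymetrix Expression Console; the sources used here give no version or genome build. RMA equalises the arrays, and differences close to background are compressed.

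Of 41345 probe sets, 23521 had 1 symbol, 1814 several and 16010 none. Entrez identifiers matched 23328 to current symbols. The brightest one-symbol probe set stood for a gene, and genes under 3.905 were left out. Differences were tested with limma 3.58.1 (intensity trend, two-sided) and statmod 1.5.0 in R 4.3.3. Day and genotype were fitted by group means plus sex, and culture entered as a random block (within-culture correlation 0.202); thyroxine used the pair as a fixed block, a pairing the labels give through shared cultures. P-values measure the spread between arrays, which may be technical in part. The fits were also run on simulated data. For genotype these held no difference between cultures, so they do not check that fit for a culture that stands apart, as the wild-type male culture did. The alternatives were the probe set rule, the variance trend, the filter, median centring, the blocks and arrays left out.

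The members and lists were chosen with earlier results of these data known. All 9 members were named, with the 3 best-correlated genes of each; from a further list, up to 4 called genes of largest change per comparison, and Twist1, Cdh1, Vim, the PDGF ligands, Csf1r and Ptprc.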

Additional observations from a re-analysis of the deposited data

Results flagged for a closer look

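Of 45 sets of values examined for 1 sample far from the rest (the 4 arrays of a genotype and day, and the 8 pair differences, for each of the 9 genes), 1 stood out: Pdgfrb read 10.70 on the thyroxine array of Twist1+/- male cells at 7 days, against 10.48 to 10.50 on the other 3, a gap of 0.909 of the range. Chance picks out about 1 in 20 such sets.

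Of 54 contrasts set side by side between groups, 4 had every comparison of one group on the opposite side of 0 from every comparison of the other, all of them the genotype difference in male against female cells. Male minus female, that difference changed by 2.29 on the log2 scale for Pdgfra, 1.23 for Cdh11, 0.90 for Pdgfrb and -0.85 for Cdh2. These differences were not tested, and each rests on the single wild-type male culture that stood apart.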

How the results depend on the processing

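Of 120 counts of called members over 15 comparisons and the alternatives other than single arrays left out, 111 stayed within 1.5 times the main count. Only the day differences over all arrays, in wild-type and in Twist1+/- cells had a main count above 0 (4, 1 and 3). Elsewhere a count that stayed at 0 was taken as the same, so most of the 111 record an absence of calls. By day, 4 members were called, and 2 without a filter on dim genes and without the 2 Twist1+/- control arrays at 7 days, with both Snail genes losing the call each time. Over all genes, 2493 of 13453, 1843 of 22180 and 1295 of 13453 were called in these fits, in the same order. Snai2 read -0.19 (adjusted p = 0.0578) without the variance trend, and Snai1 -0.30 (adjusted p = 0.0512) with median centring, by limma. With single arrays left out the count was 2 to 3 by day, 0 to 2 in wild-type and 1 to 3 in Twist1+/- cells. It was 1 in Twist1+/- cells without those control arrays, where Cdh2 read -0.93 (limma, adjusted p = 0.121). Of all 13453 genes, 261 were called in that fit, against 1969 in the main fit.

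The fit without the wild-type male culture leaves 1 wild-type culture and sets the within-culture correlation to 0. More members were called there by day in wild-type cells and by genotype, as were more of all genes. Those calls rest on 1 wild-type culture, and for genotype set 1 culture against 1, so their counts are not given. There the signs turned for the genotype difference of Snai1 (-0.27), Cdh2 (0.36), Cdh11 (-0.39), Vcam1 (-0.0925; -0.0938 in control medium and -0.25 at 3 days), Pdgfra (-0.65) and Pdgfrb (-0.24), for the day difference of Vcam1 (-0.10), Pdgfra (-0.14, and -0.17 in wild-type cells) and Snai1 in wild-type cells (0.01), and for thyroxine of Cdh11 (0.035) and Pdgfrb (0.0362). Without the 2 Twist1+/- controls they turned for the day difference of Vcam1 (-0.0033) and for thyroxine of Snai1 (-0.11; -0.02 in Twist1+/- cells and -0.04 at 7 days), Zeb1 (0.0333) and Cdh2 (0.05).

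Under thyroxine in Twist1+/- cells 1 member, Snai1, was called with the mean of all probe sets of a gene (limma, adjusted p = 0.0468). Snai1 had 1 probe set, so its own values were unchanged in that fit and only the other genes of the fit differed. In that fit 47 of 13339 genes were called, against 27 of 13453 in the main fit. Leaving out 1 pair gave 0 to 1 members under thyroxine in Twist1+/- cells, in the difference between genotypes and at 7 days. With the culture as a fixed replicate block 5 members were called by day, Pdgfrb being the fifth, 1 in wild-type and 3 in Twist1+/- cells. Of all 13453 genes, 3171, 513 and 2694 were called in the same order. With no replicate block 0 members were called for genotype, and 0 of all genes. For thyroxine the pair was replaced by sex and the culture as a random block, and again 0 members and 0 of all genes were called. The causes of these changes were not tested. The number of arrays limits the precision.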
